A study of Mus musculus with 8 samples.

Results

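The subunits of oxidative phosphorylation were followed, with and without a Klf4 plasmid, in MIN6, a β-cell line that was derived from a mouse insulinoma and secretes insulin. Members were all genes whose symbols begin Nduf (a, b, c, s or v with a number), Sdh (a to d), Uqcr, Cox4 to Cox8 or Atp5, or name a protein-coding mitochondrial gene (mt-Nd, mt-Co, mt-Atp, mt-Cytb), without pseudogene names holding "-ps". Of 55536 genes counted, 102 were members: 89 in the nucleus, of which 81 passed the filter on low counts, and 13 on the mitochondrial genome, all of which passed.

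All cells were wild type by label and were transfected for 48 h with Lipofectamine 3000, a lipid reagent. Control cells carried pcDNA 3 without an insert, and the others carried pGloMyc-Klf4, from which the zinc-finger transcription factor Klf4 is made. The plasmid names point to different backbones, so backbone and Klf4 changed together. Each group had 4 biological replicates, with replicates 1 and 2 of both groups in batch 1 and replicates 3 and 4 in batch 2, sequenced as polyadenylated RNA (kit: Tecan Universal Plus mRNA-seq). An extraction label speaks of islets although all samples are named Min6, and they were treated as MIN6.

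Oxidative phosphorylation passes electrons from NADH and succinate through complexes I to IV of the inner mitochondrial membrane and uses the resulting proton gradient to make ATP in complex V. Nuclear genes encode most subunits, and the mitochondrial genome encodes core subunits of complexes I, III, IV and V, with none of complex II. In the β cell, ATP made this way closes potassium channels and so couples glucose to insulin release.

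Libraries held 45417853 to 52731176 counts. Klf4 lay at 36.1 to 42.8 CPM (counts divided by the TMM-scaled library size) in the control libraries and at 4532 to 5853 CPM in the others, where plasmid and endogenous Klf4 cannot be told apart. Ins2, at 13110 CPM or more, and Iapp, at 5523 CPM or more in every library, mark the cells as β-cell-like. The 5 fibroblast and endothelial markers tested summed to 6.69 to 7.91 CPM in control and 10.3 to 11.8 CPM in Klf4-plasmid libraries; 3 of them (Col1a1, Pdgfra and Cdh5) rose, Cdh5 had no counts in the controls, and Col3a1 and Kdr had at most 3 counts in any library. Leukocyte markers, of which 4 were tested and Cd79a rose, summed to 9.06 to 10.1 and 9.77 to 12.1 CPM, and those of other islet cells, of which 3 were tested and Irx2 rose, to 59.7 to 89.1 and 55.2 to 95.8 CPM. The leukocyte marker Ptprc had at most 7 counts. Cela1, the only acinar marker tested, lay at 1.315 to 3.915 CPM in control and 1.258 to 2.712 CPM in Klf4-plasmid libraries, and was not called. Of the untested acinar markers, Ptf1a and Cel had at most 18 and 16 counts in a library, and Cpb1 had none. The part of these markers in the results was not tested. The library of Klf4-plasmid replicate 2 had the lowest total and the highest share of mitochondrial counts, 4.22%, close to the 4.20% of control replicate 4. The others with the plasmid had 3.67% to 3.84%. The mitochondrial results are given with and without the library of Klf4-plasmid replicate 2. In bulk RNA, fewer cells of a type and less RNA per cell cannot be told apart.

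A block of chromosome 1 (chr1:24611535-24616197, GRCm38, 4663 bases) holds annotated pseudogenes nearly identical to all or a stretch of 7 mitochondrial members. Over the 7 pairs, 4149 bases were compared and 7 differed, 6 of them between mt-Co1 and Gm29216. The pair mt-Nd3 and Gm28438 is shown because it differs by 1 base, T3C, counted from the first base of the gene; the first 90 bases of each are given 5′ to 3′ from the GENCODE transcripts, and the capital marks that base.
mt-Nd3 (chrM:9459-9806, + strand): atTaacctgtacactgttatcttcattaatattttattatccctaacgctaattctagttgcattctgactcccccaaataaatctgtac
Gm28438 (chr1:24612775-24613119, - strand): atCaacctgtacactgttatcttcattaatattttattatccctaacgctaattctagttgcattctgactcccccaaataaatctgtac
The other 5 pairs (mt-Nd4, mt-Nd4l, mt-Co2, mt-Co3 and mt-Atp6 with their copies) had no difference over the compared length.

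Promoters are shown for Atp5d and Atp5c1, which encode the δ and γ subunits of the ATP synthase F1 part and had opposite changes. Each run is the 250 bases before a start given by RefSeq for GRCm38.p6; windows existed for 66 of 88 nuclear member symbols, and Ndufa4l2 was not among them.
Atp5d (chr10:80142025-80142274, + strand): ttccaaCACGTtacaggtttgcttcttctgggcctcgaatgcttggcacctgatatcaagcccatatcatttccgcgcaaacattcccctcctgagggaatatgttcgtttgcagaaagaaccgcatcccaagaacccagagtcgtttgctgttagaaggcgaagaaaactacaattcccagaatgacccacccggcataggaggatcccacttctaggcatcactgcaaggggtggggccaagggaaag
Atp5c1 (chr2:10080433-10080682, - strand): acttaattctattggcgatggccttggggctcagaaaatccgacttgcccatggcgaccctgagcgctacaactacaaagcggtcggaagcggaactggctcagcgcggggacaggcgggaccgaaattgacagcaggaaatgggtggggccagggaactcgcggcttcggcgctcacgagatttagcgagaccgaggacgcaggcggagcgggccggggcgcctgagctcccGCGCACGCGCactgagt
The capitals in Atp5d mark ACGTG, the core of the hypoxia element, read on the other strand, 244 bases before the start; those in Atp5c1 mark the match to the motif of NRF1, a regulator of respiratory genes, 17 bases before the start. Each printed window holds 1 match, so none overlap. A second RefSeq start exists for each gene, and its window held none of the motifs searched, so the windows shown are those with a match. The Atp5d window lies within the annotated span of its gene. That of Atp5c1 does so in part, and the part holds the NRF1 match. Over both strands, the NRF1 motif was in 19.7% of 71 member windows and in 3.74% of all 32851 windows. GGGNGTGG, a KLF motif, was in 16.9% and 15.9%, CCGGAAGT, an ETS motif, in 4.23% and 2.88%, and ACGTG in 19.7% and 16.6%. None of these 4 motifs was found in the windows of Ndufa10, Ndufb5, Ndufb10, Cox8a and Atp5b, which says only that those letters are not in them.

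Most nuclear members differed little between the groups. At an adjusted p under 0.05, from edgeR's quasi-likelihood test with a batch term, 8 of 81 passed (9.88%), 2 higher and 6 lower with the Klf4 plasmid, beside 36.6% of all 18266 genes tested (21.1% higher, 15.5% lower). Of 4006 highly counted genes, those at an average log2 CPM of 6 or more, 47.3% passed. Nuclear members had a median log2 fold change of -0.03 and all genes one of -0.01, and 75.3% of the members lay below 0 against 53.2% of all genes. The highly counted genes had a median of -0.04 with 66% below 0, so the members' median was not lower than that of genes of such levels. Of the 73 members that did not pass, 68 had a 95% interval within 0.2 of 0 on the log2 scale, a change of 14.9% up or 12.9% down. The other 5 were low or sparsely counted: Cox6b2, Cox7a1, Cox6a2, Atp5s and Ndufb4c, the last a processed pseudogene by annotation. With scaling factors from the highly counted genes, 5 passed (3 higher, 2 lower). Without control replicate 2 the count of nuclear calls was 19, without control replicate 1 it was 13, and without Klf4-plasmid replicate 1 it was 16.

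**Figure D1:**
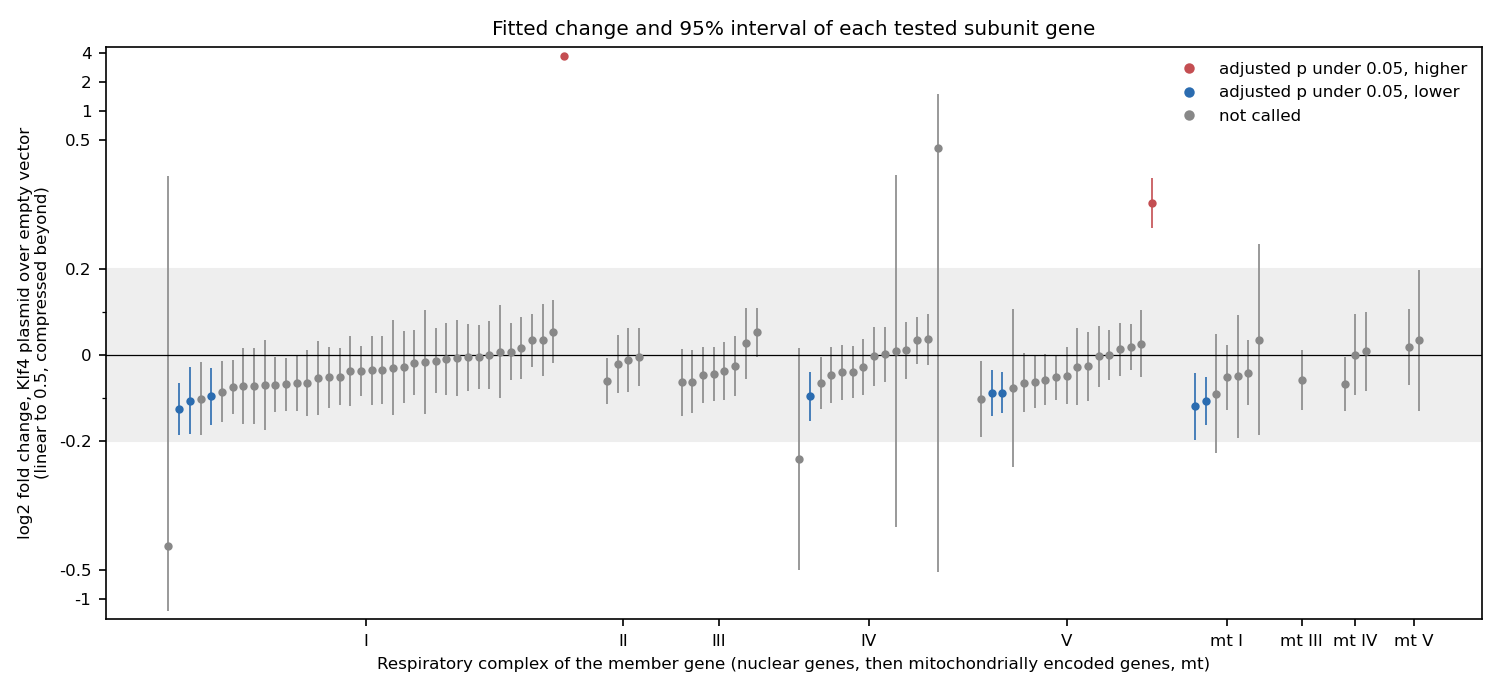
Fitted log2 fold change (Klf4 plasmid over empty vector; axis linear to 0.5 and compressed beyond) of each tested member with its 95% interval, ordered within its complex, nuclear genes first and mitochondrially encoded genes (mt) last; the grey band is 0.2 either side of 0. Ndufa4l2 at 3.74 and Atp5d at 0.35 stand above the band, and the other 8 members past the threshold (blue) are lower and within it.

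Complex I takes electrons from NADH and is the largest of the complexes. Ndufa4l2 rose most: its counts were 37, 33, 41 and 41 in control replicates 1 to 4 and 434, 399, 596 and 720 with the Klf4 plasmid. These were 0.678 to 0.849 CPM in the control and 8.40 to 13.7 CPM in the other libraries, so the groups stood apart. The log2 fold change was 3.74 (SE 0.12, adjusted p 5.49e-17), 3.55 in batch 1 and 3.89 in batch 2. Ndufa4l2 (ENSMUSG00000040280, chr10:127514967-127517154, + strand, GRCm38) encodes a paralog of Ndufa4 that is known as a hypoxia-responsive gene. Per kb of exon, it lay at 1.05% of the level of Ndufa4 in control and 13.7% with the Klf4 plasmid. Ndufa4, which encodes a subunit now assigned to complex IV, lay at 94.9 ± 4.40 CPM (SD, n = 4) in control and 97.2 ± 5.82 CPM with the Klf4 plasmid, with an edgeR adjusted p of 0.54. An exon of Ndufa4l2 overlaps one of Shmt2, a mitochondrial serine hydroxymethyltransferase gene that fell by 0.09, and without a stated strand setting reads in the overlap cannot be assigned.

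The other complex I calls were small decreases. Ndufa10 (ENSMUSG00000026260, chr1:92439010-92473860, - strand), an accessory subunit, had 137, 130, 146 and 140 CPM in control replicates 1 to 4 and 124, 123, 131 and 130 CPM with the Klf4 plasmid. It fell by 0.13 (SE 0.03, adjusted p 0.00152), and the groups overlapped over the batches but not within one. Ndufb10 (ENSMUSG00000040048, chr17:24722060-24724478, - strand) lay at 91.3 to 99.6 CPM in control and 89.3 to 90.8 CPM with the plasmid, and so did not overlap; its log2 fold change was -0.10 (SE 0.03, adjusted p 0.0215). Ndufb5 (ENSMUSG00000027673, chr3:32736990-32751566, + strand) lay at 52.77 to 55.54 CPM against 48.64 to 52.95 CPM, a change of -0.11 (SE 0.04, adjusted p 0.0294). Both encode accessory subunits of the membrane arm, and over 20 fits (the one above and 19 alternatives) Ndufb5 passed in 13, Ndufb10 in 16 and Ndufa10 in 19. Of the 38 tested nuclear genes with Nduf symbols, counted here as complex I and including Ndufa4 and Ndufa4l2, 4 passed, with a median of -0.04. Of the core subunits, Ndufs1, Ndufs3, Ndufs7, Ndufs8, Ndufv1 and Ndufv2 had log2 fold changes from -0.08 to 0.01, and none of them passed. The highest member per kb was Ndufa1, at 292 CPM per kb in control, with 122 ± 11.5 CPM in control and 121 ± 3.18 CPM with the plasmid.

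In complex II, succinate dehydrogenase, also an enzyme of the TCA cycle, 0 of 4 members passed in edgeR; 1 (Sdha) had an unadjusted p under 0.05, and DESeq2 and limma-voom each called 1. Sdha, the flavoprotein, lay at 330 ± 16.7 CPM in control and 316 ± 6.79 CPM with the Klf4 plasmid, which is -0.06 on the log2 scale (SE 0.03, edgeR adjusted p 0.0744). Sdhb, the iron-sulfur subunit, lay at 76.3 ± 1.93 and 75.1 ± 1.71 CPM, Sdhc at 79.9 ± 4.65 and 79.3 ± 1.91 CPM, and Sdhd at 89.2 ± 3.45 and 88.9 ± 4.45 CPM. In complex III, which carries electrons from coenzyme Q to cytochrome c, 0 of 8 nuclear members passed in edgeR, 0 had an unadjusted p under 0.05, and DESeq2 and limma-voom called 0. Log2 fold changes ran from -0.06 in Uqcrfs1, the Rieske subunit, to 0.05 in Uqcrc1, a core subunit, and the highest per kb was Uqcr11 at 154 CPM per kb. These zeros depended on the setting. Uqcrc1 was called higher with scaling factors from the highly counted genes (0.08). Uqcr11 was called lower with offsets for GC content and length (-0.13), without control replicate 2 (-0.10) and without Klf4-plasmid replicate 1 (-0.10).

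Complex IV, cytochrome c oxidase, has tissue-specific isoforms, and the ubiquitous ones carried most counts. Of 14 members tested, Cox8a alone passed in the fit above. It lay at 154 to 168 CPM in control and 146 to 156 CPM with the Klf4 plasmid, and fell by 0.10 (SE 0.03, edgeR adjusted p 0.00879). Cox8a (ENSMUSG00000035885) is at chr19:7215153-7217616, - strand, and its groups overlapped. Cox4i1 lay at 207 ± 4.52 CPM in control and 212 ± 6.21 CPM with the plasmid, Cox6b1 at 133 ± 8.64 and 134 ± 1.76, and Cox7a2 at 103 ± 2.92 and 104 ± 1.74. Cox6a1, the highest per kb of the complex, was at 335 CPM per kb in control, and its heart and muscle isoform Cox6a2 at 4.61 CPM per kb. Cox6a1 changed by -0.06 (SE 0.03, edgeR adjusted p 0.0915). It was called lower without the filter (-0.07), without control replicate 2 (-0.10) and with offsets for GC content and length (-0.15). Cox6a2 was the member that differed most between batches, at 4.14 and 4.42 CPM in control replicates 1 and 2 and 1.91 and 2.07 CPM in replicates 3 and 4. With the plasmid it lay at 3.14, 3.38, 1.92 and 1.93 CPM, -0.24 on the log2 scale with an edgeR adjusted p of 0.141. Cox7a1 was at 1.30 ± 0.289 and 1.31 ± 0.184 CPM, and Cox6b2, the testis isoform, at 0.191 ± 0.155 and 0.262 ± 0.0904 CPM.

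Isoforms and copies below the filter were given no test. Cox4i2, the isoform known to respond to hypoxia, had 5, 1, 2 and 2 counts in control and 14, 2, 1 and 13 with the Klf4 plasmid. Cox7b2 had 8, 0, 5 and 18 counts against 3, 3, 1 and 10. For Cox8b the counts were 4, 8, 6 and 6 against 1, 1, 9 and 0, and for Cox8c 4, 2, 0 and 0 against 1, 1, 0 and 0. The processed pseudogenes Ndufs6b, Cox6c2 and Ndufa11b had at most 8, 13 and 2 counts, and a second Atp5o entry had none. At this depth these values do not separate the groups.

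Complex V, the ATP synthase, had 3 of 17 members past the threshold, and its F1 subunits moved in opposite directions. Atp5d (ENSMUSG00000003072, chr10:80138632-80145818, + strand), the δ subunit of the central stalk, lay at 188, 179, 201 and 196 CPM in control and 234, 238, 245 and 260 CPM with the Klf4 plasmid. All 4 libraries with the plasmid were above all 4 controls. It rose by 0.35 (SE 0.03, adjusted p 6.32e-10), or 27.7%, by 0.36 in batch 1 and 0.34 in batch 2. An exon of Atp5d overlaps Cbarp, a calcium channel regulator gene that fell by 0.17 (adjusted p 0.00036), so reads in the overlap cannot be assigned. Atp5b (ENSMUSG00000025393, chr10:128083273-128090391, + strand), the catalytic β subunit, lay at 1437, 1422, 1537 and 1515 CPM in control and 1389, 1322, 1432 and 1419 CPM with the plasmid. Within each batch both plasmid libraries were lower than both controls, and the log2 fold change was -0.09 (SE 0.02, adjusted p 0.00434). Atp5c1 (ENSMUSG00000025781, chr2:10056016-10080510, - strand), the γ subunit, lay at 209 to 234 CPM against 198 to 215 CPM, with a change of -0.09 (SE 0.03, adjusted p 0.00969). The α subunit, Atp5a1, the highest of the complex at 353 CPM per kb, had 1105 ± 55.7 CPM in control and 1065 ± 22.6 CPM with the plasmid, with an edgeR adjusted p of 0.122. The 3 genes for the c subunit of the membrane rotor did not pass: Atp5g1 had 121 ± 2.77 and 117 ± 4.01 CPM, Atp5g2 52.6 ± 5.35 and 51.5 ± 2.26 CPM, and Atp5g3 271 ± 10.8 and 271 ± 9.54 CPM.

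**Figure D2:**
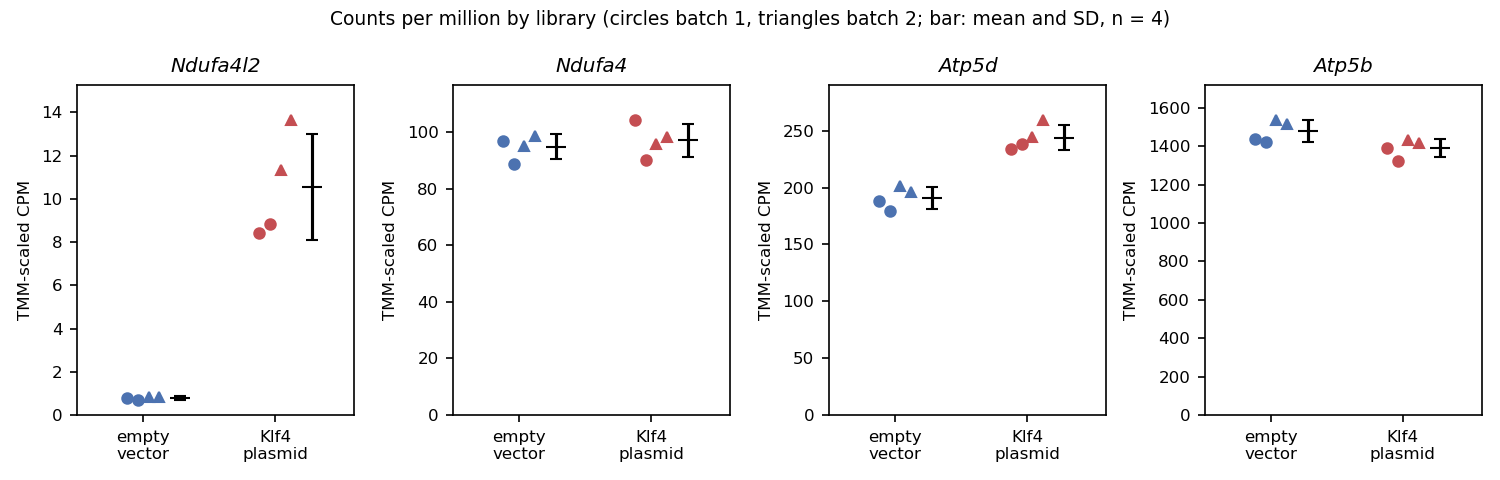
TMM-scaled CPM of Ndufa4l2, Ndufa4, Atp5d and Atp5b in each library (circles batch 1, triangles batch 2; blue empty vector, red Klf4 plasmid), with the mean and SD of 4 libraries. The groups do not overlap in Ndufa4l2 and Atp5d, while Atp5b is lower with the plasmid only within each batch and Ndufa4 overlaps.

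Over the nuclear members, 2 lay wholly above the control libraries (Ndufa4l2 and Atp5d) and 3 wholly below (Ndufb10, and Ndufb11 and Ndufv2, which did not pass the test), where 17.2% and 8.93% of all genes did so. Batch moved more members than the plasmid: 29 of 81 passed the batch test, 27 higher and 2 lower in batch 2, against 25.1% of all genes (13.4% higher, 11.6% lower). The 2 lower in batch 2 were Cox6a2 (by 0.93) and Ndufc2 (by 0.13, log2). For 0 of 81 nuclear members did the plasmid effect differ between batches in edgeR's interaction test, with 13 at an unadjusted p under 0.05 and 0 by DESeq2 and limma-voom; 0.766% of all genes passed it.

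Mitochondrially encoded members had small fitted changes and unequal counts. Counts per library were 6358 to 569570 in 7 of them and 184 to 3813 in the other 6. For mt-Nd3, the lowest, the 95% interval of the log2 fold change was -0.19 to 0.26. In the pooled fit, 2 of 13 passed (15.4%, beside 36.6% of all genes in either direction and 15.5% lower), both lower: mt-Nd4 by 0.11 (SE 0.03, adjusted p 0.00291) and mt-Nd5 by 0.12 (SE 0.04, adjusted p 0.016), which both encode proton-pumping subunits of complex I. The median over the 13 was -0.05, and 0.05 with offsets for GC content and length. None was higher in edgeR, none at an unadjusted p under 0.05, and none by DESeq2 or limma-voom. mt-Nd4 (chrM:10167-11544) had 2280, 2328, 2225 and 2277 CPM in control and 2183, 2300, 1992 and 1996 CPM with the Klf4 plasmid. mt-Nd5 (chrM:11742-13565) had 6940, 7174, 6950 and 6981 CPM in control and 6539, 7475, 5785 and 6109 CPM with it, so the highest and the lowest libraries both carried the Klf4 plasmid. With offsets for GC content and length, mt-Nd4 and mt-Nd5 did not pass (-0.01 and -0.03), and mt-Co2 and mt-Atp6 were called higher. Without Klf4-plasmid replicate 2 the log2 fold changes of mt-Nd4 and mt-Nd5 were -0.14 and -0.19. Without that library, and without control replicate 2, 6 members passed, and without control replicate 3 or Klf4-plasmid replicate 3, 1 passed.

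Changes in the mitochondrial transcripts depended on the batch. The plasmid effect differed between batches for 5 of 13, beside 0.766% of all genes and 45 of 4006 highly counted genes. For mt-Nd1 the log2 fold change was 0.08 in batch 1 and -0.19 in batch 2 (adjusted p of the difference 0.000151, edgeR's interaction test). In that order, the values were 0.10, -0.18 and 4.2e-05 for mt-Nd2, and -0.01, -0.23 and 0.0298 for mt-Nd5. They were 0.05, -0.17 and 0.00429 for mt-Cytb, and 0.02, -0.15 and 0.0341 for mt-Co1. In batch 2, each of the 7 highest-counted genes lay lower in both plasmid libraries than in both control libraries. In batch 1 the libraries with the plasmid differed from each other: mt-Co1, the catalytic subunit of cytochrome c oxidase, had 10630 CPM in replicate 1 and 11820 CPM in replicate 2, beside 11020 and 11110 CPM in control replicates 1 and 2. Control and plasmid libraries of batch 2 lay at 11550 and 11740 CPM and at 10490 and 10460 CPM. mt-Cytb, the cytochrome b of complex III, had 8450 and 8424 CPM in control and 8300 and 9197 CPM with the plasmid in batch 1, and 8751 and 8837 CPM against 7775 and 7880 CPM in batch 2. mt-Nd6, encoded on the light strand, had 140, 132, 196 and 175 CPM in control and 123, 163, 150 and 162 CPM with the plasmid. mt-Nd1 had 6443, 6338, 7231 and 7409 CPM against 6554, 6978, 6339 and 6529 CPM, and mt-Nd2 had 3804, 3782, 4236 and 4346 CPM against 3993, 4143, 3769 and 3798 CPM. Without Klf4-plasmid replicate 2 the difference between batches passed for 3 genes, mt-Nd1 (-0.22), mt-Nd2 (-0.26) and mt-Cytb (-0.15), and no longer for mt-Nd5 (-0.12 instead of -0.22) and mt-Co1 (-0.10 instead of -0.17). That of mt-Nd6, which passed in neither fit, moved from -0.32 to -0.11. The difference passed without control replicate 3 for 3, and without control replicate 4 for 2; mt-Nd1 and mt-Nd2 passed in 17 of 17 settings, mt-Cytb in 16, and mt-Nd5 and mt-Co1 in 10.

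**Figure D3:**
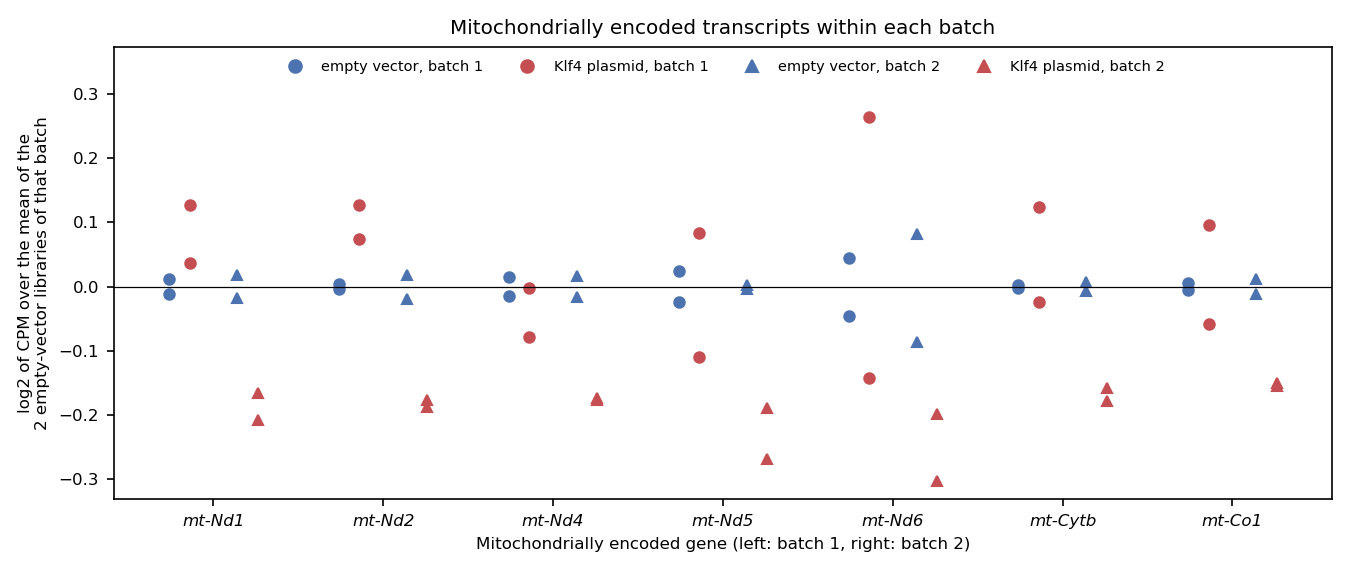
Log2 of CPM over the mean of the 2 empty-vector libraries of the same batch, for the 7 highest-counted mitochondrial members (circles batch 1, left; triangles batch 2, right; blue empty vector, red Klf4 plasmid). In batch 2 all plasmid libraries are below the empty-vector libraries, while in batch 1 they lie on both sides of 0 for mt-Nd5, mt-Nd6, mt-Cytb and mt-Co1.

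The share of all counts in the 13 members was 3.93% and 3.95% in control and 3.84% and 4.22% with the plasmid in batch 1, and 4.12% and 4.20% against 3.67% and 3.71% in batch 2. The means were 4.05% ± 0.129 and 3.86% ± 0.249 (SD, n = 4), with an exact permutation p of 0.229 (two-sided, 70 relabellings, smallest possible 0.0286). Without Klf4-plasmid replicate 2 the difference was -0.311 percentage points instead of -0.192, with an exact permutation p of 0.0286, the smallest that 35 relabellings can give. Leaving out any other single library gave an exact permutation p of 0.2 to 0.457. All these relabellings ignore the batch, and without replicate 2 the plasmid libraries were unequal over the batches. Within batches the difference was 0.0831 percentage points in batch 1 and -0.468 in batch 2. The share in the nuclear members was 1.06% ± 0.038 and 1.03% ± 0.0238, with an exact permutation p of 0.314 over relabellings that ignore the batch. It was lower with the plasmid in 4 of 4 same-numbered pairs, though the numbers were not shown to pair libraries beyond the batch. The mean difference was -0.00926 percentage points in batch 1 and -0.0388 in batch 2.

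Levels of the mitochondrial members are given beside the sequence they share with other annotated genes, split at a chosen cut of 90% shared words. By shared 50-base words, 5 members had at least 90% of their transcript in another annotated gene: mt-Co2 (100%), mt-Co3 (99.9%), mt-Atp6 (99.5%), mt-Nd4l (98.8%) and mt-Nd3 (98%). These lay at 12.2 to 104 CPM per kb in control. So did mt-Atp8, which shared no words and was grouped with them by position, as its neighbours' copies stand 233 bases apart. The other 7 lay at 309 to 7531 CPM per kb. They include mt-Nd4, which shared 62.2%, and mt-Co1, which shared 51.1%, and both also have copies in the chromosome 1 block. mt-Co2, an electron-entry subunit of complex IV, had 69.8 ± 4.25 CPM in control and 70.3 ± 4.07 CPM with the plasmid, and mt-Co3 44.1 ± 2.53 and 44.1 ± 2.02 CPM. mt-Atp6, a stator channel subunit of complex V, had 71.1 ± 5.29 and 72.1 ± 2.05 CPM, and mt-Atp8 8.83 ± 0.466 and 9.05 ± 0.872 CPM. mt-Nd3 had 4.26 ± 0.497 and 4.36 ± 0.327 CPM, and mt-Nd4l 8.98 ± 0.649 and 8.69 ± 0.812 CPM. The copies were themselves counted: Gm28661, the copy of mt-Co2, had 5472 to 6160 counts per library, more than the 3050 to 3669 of mt-Co2. Gm28438, the copy of mt-Nd3 shown above, had 172 to 251 counts beside 184 to 249. None of the 7 copies passed the test, with adjusted p from 0.146 to 0.971. With the counts of gene and copy summed, the log2 ratio of mt-Co2 was -0.03 and that of mt-Nd3 0.09. Whether the counting left out reads that match both places is not given in the sources used here, and its part in these levels was not tested.

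**Figure D4:**
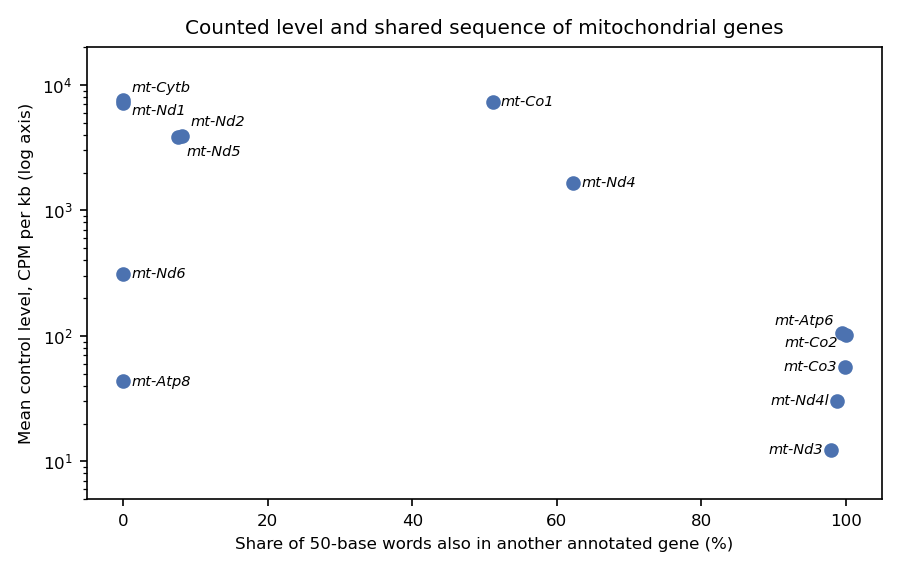
Mean control level of each mitochondrial member (CPM per kb, log axis) against the share of its 50-base words that also occur in another annotated gene. The 5 genes at or above 98% lie at 12.2 to 104 CPM per kb, and mt-Atp8 lies low with none shared.

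Genes around the complexes, listed by function, are given by their counts of calls, beside 15.5% of all genes called lower and 21.1% higher. Of 48 assembly factors, 8 fell (16.7%) and none rose, with a median of -0.03; Ndufaf6 fell by 0.25 and Sdhaf1, which helps assemble complex II, by 0.18. Of 17 genes of the TCA cycle and pyruvate dehydrogenase, 4 fell (23.5%), among them Pdhb by 0.14 and Dld by 0.12, both of the pyruvate dehydrogenase complex. Of 24 genes for mitochondrial DNA upkeep and transcript handling, 8 fell (33.3%). All 24 were below 0 (median -0.11), as were 53.2% of all genes and 66% of the highly counted genes. The count of 8 was 4 at an adjusted p under 0.01 and 11 without control replicate 2. Supv3l1, a helicase of mitochondrial RNA decay, fell by 0.28 and Tfb2m, a mitochondrial transcription factor, by 0.20. Of 11 genes of coenzyme Q synthesis, Coq6 (by 0.17) and Coq2 (by 0.15) fell (18.2%); 4 were called without control replicate 2 or without Klf4-plasmid replicate 3. None of these 4 lists held a gene called higher, except 1 of the TCA list with scaling factors from the highly counted genes. With no batch term, 2, 2, 4 and 2 genes of the lists fell, in the order given. With a log2 minimum of 0.2 the counts were 1, 0, 2 and 0.

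Electron carriers, exchangers and subunits outside the name rule were 15, of which 2 rose and 2 fell (4 and 0 with scaling factors from the highly counted genes). Ucp2, an uncoupling-protein homologue known to limit insulin secretion, rose from 51.4 ± 1.16 to 67.6 ± 5.01 CPM, by 0.40 (SE 0.04, adjusted p 8.57e-08), and the groups did not overlap. Etfdh rose by 0.09, and Gpd2, of the glycerol phosphate shuttle, and Ndufab1, the acyl carrier of complex I, each fell by 0.09. Over 19 alternatives Etfdh lost its call in 13, Ndufab1 in 9 and Gpd2 in 5. With a replicate block Etfdh (adjusted p 0.0708 from edgeR) and Ndufab1 (0.0567) did not pass, which left 1 higher and 1 lower, and 2 of the list were called without control replicate 3, control replicate 4 or Klf4-plasmid replicate 4. Among 13 transcriptional regulators, Hif1a rose by 0.11 and Esrrg fell by 0.36. Epas1, which encodes HIF-2α, had no counts in the 4 controls and 29, 30, 24 and 22 with the Klf4 plasmid, at least 33.4-fold higher against a floor of 3 counts over the control group. Pprc1, a PGC-1 related coactivator, fell by 0.11.

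Ribosomal protein genes, which like the nuclear members encode parts of a large complex, were set beside them. Of 87 cytosolic ribosomal proteins, 11 fell (12.6%, median -0.05), with Rps10 at -0.31 and Rpl12 at -0.17; Rps10 had only 2.88 to 4.12 CPM. The count was 32 of 88 without control replicate 2, 23 of 88 without Klf4-plasmid replicate 1, 23 with offsets for GC content and length, 5 with scaling factors from the highly counted genes and 3 with no batch term. Of 77 mitochondrial ribosomal proteins, 14 fell (18.2%, median -0.05), with Mrps35 at -0.21 and Mrps31 at -0.19, and the count was 9 without control replicate 3 or with those scaling factors and 4 with no batch term. No member of either ribosomal list was called higher with TMM factors alone and all libraries. Called higher were 2 of the mitochondrial list with those scaling factors, 1 cytosolic and 2 mitochondrial with the offsets, and 1 mitochondrial without control replicate 1 or without Klf4-plasmid replicate 2. The medians lay beside -0.01 over all genes, -0.04 over the highly counted genes and -0.03 over the nuclear subunits. The lists were not tested against each other. Of 8 β-cell markers, 5 fell (62.5%) and none rose, beside 15.5% of all genes and 1258 of 4006 highly counted genes called lower. Pdx1 fell by 0.12, with -0.04 in batch 1 and -0.19 in batch 2. Mafa fell by 0.18, with -0.05 in batch 1 and -0.30 in batch 2. Iapp fell by 0.07 (not with offsets for GC content and length), and Slc30a8 and G6pc2 also fell. Ins1 and Ins2 had log2 fold changes of -0.02 and -0.03 and did not pass. Over the 8 lists other than the members, 55 genes passed, and without control replicate 2 there were 88. The scaling factors from highly counted genes gave 39 (11 higher, 28 lower, against 4 and 51).

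**Figure D5:**
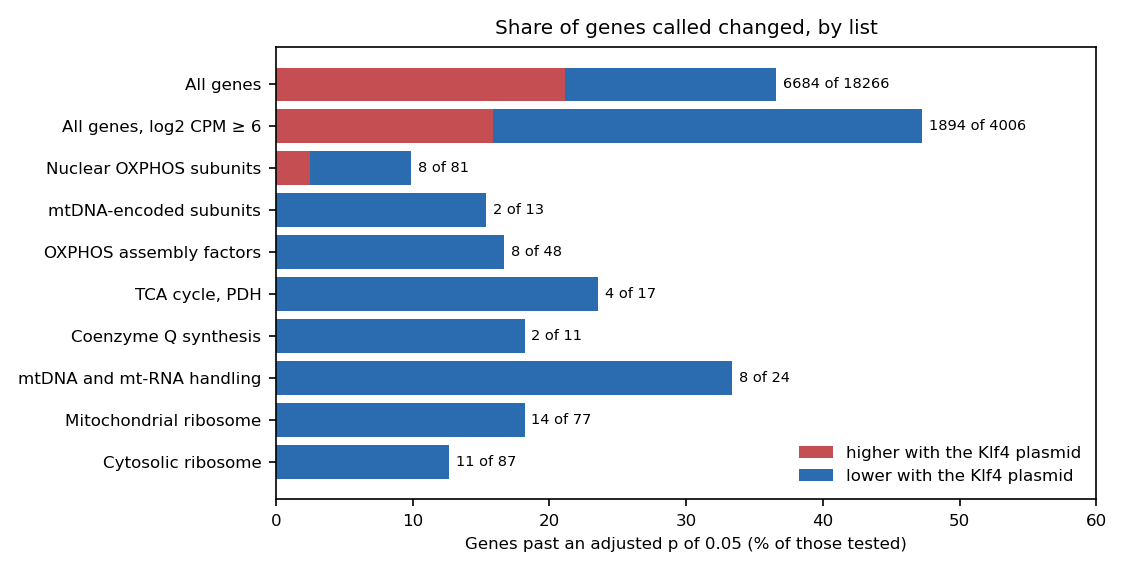
Share of tested genes past an adjusted p of 0.05, split into higher (red) and lower (blue) with the Klf4 plasmid, for all genes, for genes of average log2 CPM of at least 6, for the members and for 6 of the other lists. Left out were the electron carriers (with exchangers and subunits outside the name rule) and the transcriptional regulators. Each of these lists had 2 genes called higher and 2 lower. Nuclear subunits stand at 8 of 81, against 6684 of 18266 over all genes.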

How the data were processed

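Polyadenylated RNA of 8 MIN6 cultures was sequenced, and the authors deposited raw counts, whole numbers of reads for each gene in each library without normalisation. The name of the deposited table shows trimming by cutadapt. FastQC, STAR, featureCounts, edgeR and the mm10 build are listed per the submitters' processing notes, which here give no versions or settings. The annotation and the strand setting are not given in the sources used here. All 55536 pairs of identifier and symbol matched GENCODE M21 of GRCm38, which supplied coordinates, lengths and transcripts.

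Members were found by their symbols, and the members and gene lists were chosen with earlier results of these data known. Genes were kept by filterByExpr (minimum count 10), scaled with TMM factors of 0.996 to 1.01, and tested in edgeR 4.0.16 under R 4.3.3 with its quasi-likelihood test and terms for batch and plasmid. P-values were adjusted by the Benjamini-Hochberg method over 18266 genes, with a threshold of 0.05. A second fit with the batch-by-plasmid term gave the values within each batch. Totals were 45417853 to 52731176 counts per library, and the median SE over the nuclear members was 0.0339 on the log2 scale. Alternatives were DESeq2 1.42.0, limma-voom 3.58.1, other scaling factors, other filters and thresholds, GC and length offsets, a replicate block, no batch term, and each library left out in turn. The fits were tested on simulated data.

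Named genes were Klf4, every mitochondrial member, the nuclear members past the threshold, the nuclear member of highest level per kb in each complex, the Sdh genes, listed isoforms, members with counts that did not pass the filter, up to 2 genes at each end of each other list, and Ins1, Ins2, Iapp, Pdx1 and Mafa. Other genes were named after their values were seen, and some genes are not reported here by name. The deviations of same-numbered libraries from their group means correlated at 0.614, 0.459, 0.57 and 0.516 over 10485 genes. Pairs with unequal numbers within a batch correlated at 0.459 to 0.574. The ranges overlapped, so these values do not show a pairing by replicate number beyond the batch.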

Additional observations from a re-analysis of the deposited data

Results flagged for a closer look

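In 140 comparisons of a library with the 3 others of its group, over the total counts and the named genes, 6 comparisons, in 4 libraries, had a gap above Dixon's 95% limit, and chance alone gives about 7. The library with the Klf4 plasmid of replicate 2 had the lowest total, 45417853 counts, and the others of its group had 51891997 to 52731176. The same library had the highest mt-Co1 level, 11820 CPM against 10460 to 10630 CPM in the others of its group. For Sdhb, control replicate 2 lay low at 73.38 CPM against 76.9 to 77.49 CPM. In the other group, Sdhb of replicate 1 lay high at 77.68 CPM against 74.01 to 74.6 CPM. For Cox7a2l, replicate 1 with the Klf4 plasmid lay low at 117.4 CPM against 120.4 to 120.9 CPM. For Rps10, a cytosolic ribosomal protein gene, control replicate 3 lay high at 4.118 CPM against 3.698 to 3.729 CPM.

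The plasmid effect differed between the batches, by edgeR's interaction test, for 5 of 13 mitochondrial members, beside 0.766% of all genes. The effect in batch 2 minus that in batch 1 was -0.27 for mt-Nd1, -0.28 for mt-Nd2, -0.22 for mt-Nd5, -0.22 for mt-Cytb and -0.17 for mt-Co1 on the log2 scale. Of the named genes outside the members, Klf4 itself differed by 0.37 (adjusted p 0.0057 from edgeR) and Mafa, a β-cell transcription factor, by -0.25 (adjusted p 0.00817 from edgeR).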

How the results depend on the processing

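Ndufa4l2 and Atp5d were called in 20 of 20 fits. In the fit of the report the other called members changed by under 10%, and their number moved with the settings. With a replicate block, the nuclear and mitochondrial counts were 8 and 2, the same numbers as without it; of the named genes, Etfdh and Ndufab1 lost their calls with the block. For nuclear members, against 8, the count was 2 with no batch term, 5 (3 higher, 2 lower) with factors from genes of average log2 CPM of at least 6, 17 with GC and length offsets, 16 with those offsets and the replicate block, 14 without the filter, 2 with a log2 minimum of 0.2, and 6 to 19 with a library left out. The numbers for mitochondrial members, against 2, were 0 with no batch term, 1 with those factors, 1 with DESeq2, 7 without the filter, 1 at an adjusted p under 0.01, 0 with the log2 minimum, and 1 to 6 with a library left out. With GC and length offsets both mitochondrial calls were higher instead of lower. The number of mitochondrial members that differed between batches, against 5, was 3 with those factors, 3 with a filter at 1 CPM, 3 with DESeq2, and 2 to 7 with a library left out. Over all genes, 4116 were called with no batch term and 3971 with the log2 minimum, against 6684, and those factors moved the split from 3856 higher and 2828 lower to 4277 higher and 1805 lower. Over the 8 other lists, 20 were called with no batch term, 32 at 0.01 and 8 with the log2 minimum, against 55, and 50 to 88 with a library left out. The factors moved their split from 4 higher and 51 lower to 11 higher and 28 lower. Iapp, called lower, had 0.0149 with GC and length offsets and 0.0148 with those and the replicate block. The cause of these shifts was not tested. The difference in mitochondrial share of counts ranged from -0.311 to -0.128 percentage points with a library left out. The exact permutation p was 0.0286 without Klf4-plasmid replicate 2 and 0.2 to 0.457 without any other library. Over 19 alternatives for each named gene, 1098 values kept their side of the threshold and their direction, or moved by under 1 SE where no call was made, 71 lost a call, 41 gained one and 59 moved by over 1 SE without a call. Members under about 10 CPM are limited by their counts: an SE reached 0.486.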
